A study of Mus musculus with 2 samples.

Results

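The 34 genes described here encode proteins by which astrocytes, the star-shaped glial cells of the brain, are recognised and through which they act. They were chosen by gene symbol as astrocyte-enriched genes, with earlier results of these data known, and all 34 were found among the 55536 genes of the deposited tables. By textbook role they fall into 9 groups, namely transcription regulators, structural and calcium-binding proteins, channels and junctions, transporters, metabolic enzymes, receptors and surface proteins, lipid carriers, secreted and matrix proteins, and metallothioneins. The tissue was the left cerebral cortex of 2 male mice, each aged 36 days, of the B6CASTF1/J hybrid strain, whose parents were of the B6 and CAST strains. Each mouse gave 1 total RNA library, for which 300 ng of RNA was depleted of ribosomal RNA and mixed with ERCC spike-ins (synthetic RNAs), and the labels number the mice as biological replicates 2 and 1. No treatment or engineered allele is named, both mice carry the same donor identifier in the labels, and both belong to 1 group. With 1 group of 2 mice no test between conditions can be made, so levels are given for each mouse and differences between the mice are given as fold changes without a p-value.

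Astrocytes take up glutamate and potassium released by neurons, convert glutamate to glutamine, couple to each other through gap junctions, and line blood vessels with endfeet rich in the water channel Aqp4. They also make most of the lipoproteins of the brain and secrete proteins that act on synapses. Several of the 34 genes are known to be transcribed in other brain cells too, among them Apoe and Cst3 in microglia, Clu in some neurons, and Sparc in microglia and vessels. In bulk tissue, fewer astrocytes and less RNA per astrocyte cannot be told apart.

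The total expected count, the number of reads assigned to genes, was 27988085 in replicate 2 and 29915463 in replicate 1. The 34 genes took 0.610% of it in replicate 2 and 0.613% in replicate 1. ERCC RNAs took 0.322% in replicate 2 and 0.407% in replicate 1, which makes a scaling on spike-ins differ from one on genes. Marker lists were set against the tissue label: excitatory neuron markers were detected in full (5 of 5, with Slc17a7 at 563 and 599 TPM in replicates 2 and 1), whereas of 3 markers of Bergmann glia and cerebellum only Gdf10 was detected (1.62 TPM in replicate 2 and 1.72 TPM in replicate 1), with Cbln3 at 0.13 TPM in each mouse and Barhl1 with no read in either. Markers of oligodendrocytes stood lower in replicate 2 (median log2 ratio of replicate 2 over replicate 1 of −0.35 over 6 genes, in counts scaled on genes) and those of microglia were close between the mice (−0.07 over the 5 of 6 with an average of 100 or more reads). With the same limit on reads, the median log2 ratio was −0.20 for excitatory neurons (5 genes, all lower in replicate 2), −0.03 for inhibitory neurons (6 genes), 0.10 for oligodendrocyte precursors (4 genes) and −0.0021 for endothelial cells (5 genes). It was 0.22 for mural cells and 0.25 for leptomeningeal fibroblasts (4 genes each), −0.33 for choroid plexus (2 genes) and 0.06 for ependymal cells (1 gene). The part of these cell types in the differences among the 34 genes was not tested.

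All 34 genes were detected, taking as detected a level of at least 1 TPM (a gene's share of all transcripts, corrected for length and scaled to the same sum in each library) in both mice. The same held for 58.6% of the 22028 protein-coding genes, a comparison that the choice of well-known genes limits to a description. The median level of the 34 genes was 57.5 TPM in replicate 2 and 54.5 TPM in replicate 1. Detected protein-coding genes had a median of 16.4 TPM in replicate 2 and 15.5 TPM in replicate 1. The spread among the 34 genes was wide: 4 stood at 500 TPM or more, 10 at 100 or more, 30 at 10 or more and 4 under 10 (means of the mice). Of 22015 nuclear protein-coding genes, the top 1% held 8 of the 34 and the top 10% held 21.

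Most of the transcript mass lay in a few genes. Glul, Apoe, Cst3, Sparcl1 and Clu together made up 60.4% of the summed TPM of the 34 genes in replicate 2 and 61.3% in replicate 1. By group, secreted and matrix proteins held 29.97% in replicate 2 and 30.3% in replicate 1, metabolic enzymes 22.9% and 23.5%, lipid carriers 21.5% and 20.8%, and metallothioneins 14.6% and 14.5% in the same mice. The 2 transcription regulators held 0.530% in replicate 2 and 0.465% in replicate 1. Ordered by mean level, 15 of the 33 neighbouring pairs overlapped in their ranges over the mice, so these neighbours did not differ beyond their spread. They formed runs, which were Glul to Cst3, Sparc and Gja1, Plpp3 to S100b, Slc4a4 to Acsbg1 (with Gjb6, Fgfr3 and Gfap between them), Hepacam and Aldh1l1, Id4 to Slc39a12 (with Cbs and Slc7a10), and Sox9 to Chrdl1 (with Agt).

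**Figure D1:**
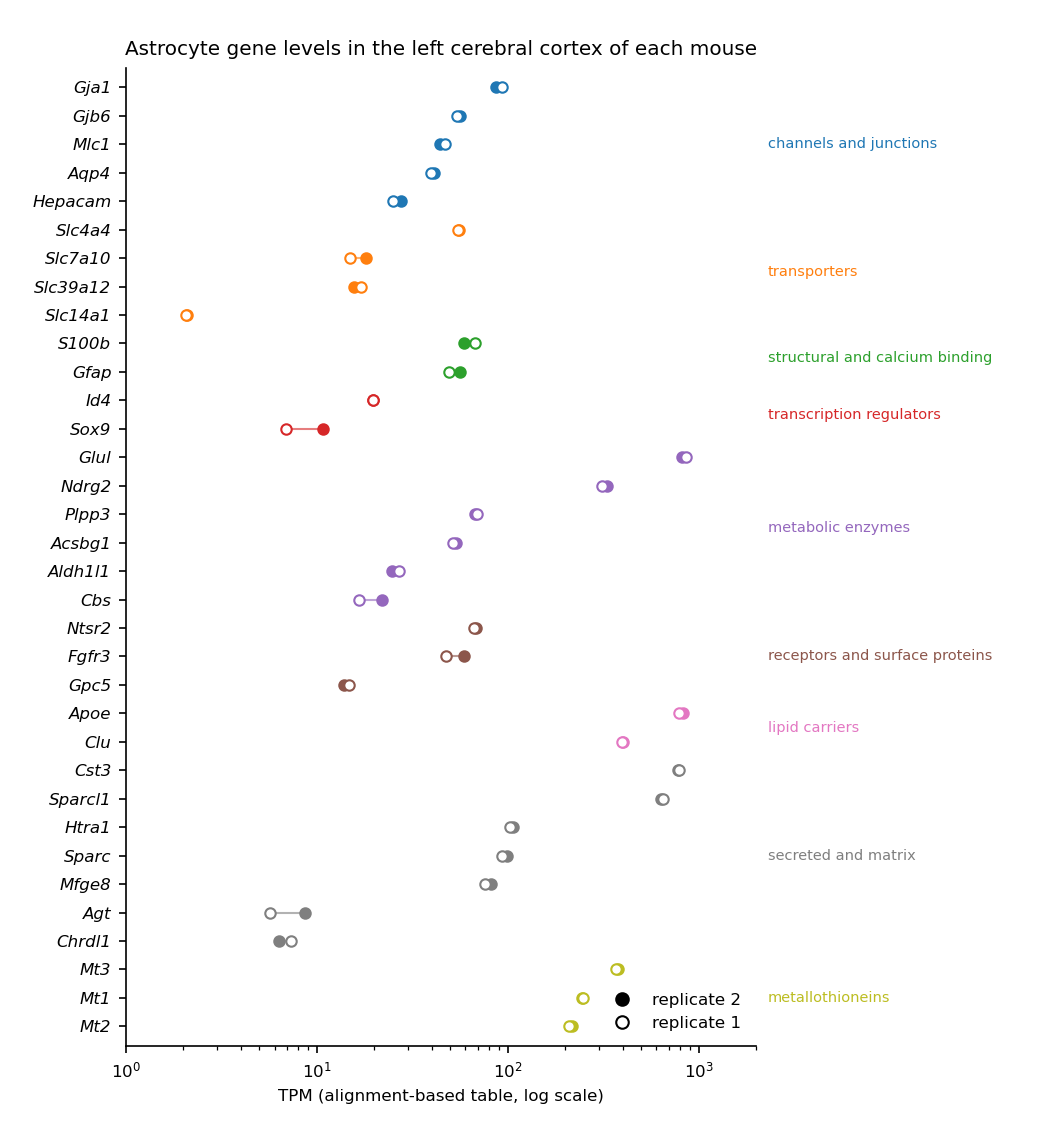
TPM of each of the 34 genes in the alignment-based gene table, on a log axis, grouped by role; filled points are replicate 2 and open points replicate 1, joined by a line. The points of a gene nearly coincide for most genes, and the widest gaps are those of Sox9 (10.8 and 6.88 TPM) and Agt (8.62 and 5.67 TPM).

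Among the transcription regulators, Sox9, a factor that specifies and maintains astrocytes, was low and differed between the mice, while Id4, an inhibitor of basic helix-loop-helix factors, did not. Sox9 (ENSMUSG00000000567.5, chr11:112782224-112787760, mm10, plus strand) stood at 10.8 TPM in replicate 2 and 6.88 TPM in replicate 1, from 799 and 547 reads. Replicate 2 was thus the higher mouse, by 0.58 on the log2 scale of scaled counts, with a 95% counting interval of 0.42 to 0.74. Id4 stood at 19.7 and 19.6 TPM in replicates 2 and 1, from 1357 and 1448 reads in the same mice. On the log2 scale of TPM + 1, the ratio of Sox9 to Id4 was −1.10 ± 0.41 (SD, n = 2), which was the widest spread of the 9 ratios between related genes that were formed, as −0.81 in replicate 2 and −1.39 in replicate 1.

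Of the structural and calcium-binding genes, Gfap, the intermediate filament of astrocytes, and S100b, a calcium-binding protein, were of similar abundance. Gfap (ENSMUSG00000020932.14, chr11:102887336-102900912, minus strand) stood at 56.2 TPM in replicate 2 and 49.6 TPM in replicate 1, and S100b (ENSMUSG00000033208.7, chr10:76253853-76261159, plus strand) at 59.0 TPM in replicate 2 and 67.7 TPM in replicate 1. The mice differed in opposite directions for these genes, with log2 ratios of 0.12 (counting interval 0.04 to 0.20) for Gfap and −0.26 (−0.36 to −0.16) for S100b under the scaling on genes. Neither reached 0.5.

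Gfap was read out as a pair of coding forms. Gfap-201, with 430 codons, held 91.9% of the gene's TPM in replicate 2 and 90.1% in replicate 1, and Gfap-202, with 428 codons, held 8.10% in replicate 2 and 9.87% in replicate 1. The read count assigned to Gfap-202 was 209 (posterior SD 12.98, the quantifier's own uncertainty of the assignment) in replicate 2 and 241 (13.3) in replicate 1. The read-based table gave Gfap-202 13.6% in replicate 2 and 16.1% in replicate 1.

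The channels and junction genes were expressed at 26.4 to 89.8 TPM (means of the mice). Gja1 (ENSMUSG00000050953.10, chr10:56377330-56402513), which encodes connexin 43, the main gap junction protein of astrocytes, was the highest at 86.5 TPM in replicate 2 and 93.1 TPM in replicate 1. Gjb6, which encodes connexin 30, followed at 56.1 TPM in replicate 2 and 54.2 TPM in replicate 1. The log2 ratio of Gja1 to Gjb6 (TPM + 1) was 0.69 ± 0.11 (SD, n = 2), or 0.99 in the read-based table, so Gja1 exceeded Gjb6 in both tables by unequal amounts. Gjb6-203, a non-coding model of 201 bases, took 29.7% of the gene's TPM in replicate 2 and 23.3% in replicate 1 from 31 and 25 reads, and 0% in the read-based table in both mice.

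Mlc1 and Hepacam, membrane proteins that act together at astrocyte contacts and endfeet, stood at 44.1 and 27.7 TPM in replicate 2 and at 47.2 and 25.04 TPM in replicate 1, Mlc1 being the higher in each mouse (log2 ratio of Hepacam to Mlc1 −0.77 ± 0.17, SD, n = 2). Aqp4, the water channel of the endfeet, stood at 41.3 and 39.9 TPM in replicates 2 and 1, below Gfap in both mice. Aqp4 is made as a long and a short protein that start at different methionines, and here the model coding the long form, with 323 codons, held 63.4% and 63.7% of the gene's TPM in replicates 2 and 1. Models coding the short form, with 301 codons, held 35.8% in replicate 2 and 36.3% in replicate 1. These shares came from 285 and 303 reads, against 2388 and 2476 reads for the long form in the same mice. The model of the long form has 5054 bases, against 1106 for Aqp4-205 and 1288 for Aqp4-210, the models of the short form that held reads. In the read-based table the long form held 58.2% and 58.5% in the same mice. The short form was spread over 7 models that differ outside the coding sequence, and the tables gave its share to different ones: the alignment-based table placed 28.3% in replicate 2 and 24.8% in replicate 1 on Aqp4-205, and the read-based table placed 0% there and 31.0% in replicate 2 and 27.97% in replicate 1 on Aqp4-202.

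The transporter genes covered a range from 2.08 to 55.3 TPM (means of the mice). Slc4a4 (ENSMUSG00000060961.14, chr5:88886818-89239653, plus strand), the sodium bicarbonate cotransporter of astrocytes, was the most abundant at 55.8 TPM in replicate 2 and 54.7 TPM in replicate 1. Slc7a10, which carries small neutral amino acids including D-serine, stood at 18.2 TPM in replicate 2 and 14.9 TPM in replicate 1, and Slc39a12, a zinc importer, at 15.7 and 17.0 TPM in those mice. Slc14a1, a urea transporter, was the lowest of the 34 genes at 2.08 TPM in replicate 2 and 2.07 TPM in replicate 1, from 123 and 137 reads. Of the 2111 exon bases of Slc7a10, 377 overlap Lrp3, a gene of the opposite strand. Lrp3 was more abundant, at 36.1 TPM in replicate 2 and 35.4 TPM in replicate 1. Whether the counting made use of strand is not known. The posterior SD of the gene count of Slc7a10 was 0 in both mice, so the quantifier left none of its reads open between genes. An effect of the overlap on the level of Slc7a10 was not tested. For Slc7a10 the difference in TPM came with nearly equal read counts (483 in replicate 2 and 487 in replicate 1). Slc7a10-202, a model subject to nonsense-mediated decay, took 80 reads (posterior SD 33.5) in replicate 2 and none (posterior SD 20.5) in replicate 1. The read-based table placed reads on Slc7a10-202 in both mice, 159 (25.8% of the gene's TPM) in replicate 2 and 83 (15.5%) in replicate 1.

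Slc4a4 was read out with more than 1 coding end. Slc4a4-207, with 1079 codons, held 56.0% of the gene's TPM in replicate 2 and 57.1% in replicate 1. Slc4a4-208, with 1094 codons, held 21.5% from 747 reads (posterior SD 53.9) in replicate 2 and 18.9% from 692 reads (posterior SD 50.3) in replicate 1. The read-based table gave Slc4a4-208 25.6% in replicate 2 and 24.7% in replicate 1, so the order of the forms was the same in both tables and both mice. The transcripts share 3099 coding bases. Slc4a4-207 then holds 97 bases that are absent from Slc4a4-208, and the 41 bases that follow them are the same in both but are read in another frame, since 97 is not a multiple of 3. The ends are shown because they hold the bases that tell the forms apart, with the last 18 shared bases in lower case and the bases after them, without the stop codon, in capitals (GENCODE M21 transcript sequence of the reference genome, mm10, plus strand, joined from exons within chr5:89228970-89234837 for Slc4a4-207 and chr5:89228970-89235609 for Slc4a4-208).
Slc4a4-207: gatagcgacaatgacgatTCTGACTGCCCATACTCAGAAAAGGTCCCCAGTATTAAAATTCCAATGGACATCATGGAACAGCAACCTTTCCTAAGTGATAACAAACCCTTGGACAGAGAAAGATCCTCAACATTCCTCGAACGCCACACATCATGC
Slc4a4-208: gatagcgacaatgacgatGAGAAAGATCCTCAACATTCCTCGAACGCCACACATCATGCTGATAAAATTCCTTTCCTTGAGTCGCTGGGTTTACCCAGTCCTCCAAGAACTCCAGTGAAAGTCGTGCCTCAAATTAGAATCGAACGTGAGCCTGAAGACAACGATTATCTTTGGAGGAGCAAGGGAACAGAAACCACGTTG

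The metabolic enzymes ranged from 19.4 to 840.0 TPM (means of the mice). Glul (ENSMUSG00000026473.15, chr1:153899944-153909723, plus strand), glutamine synthetase, which turns glutamate into glutamine, stood at 815.5 TPM in replicate 2 and 864 TPM in replicate 1, or 840.0 ± 34.6 TPM (SD, n = 2). It was the most abundant of the 34 genes, though its range overlapped that of Apoe. In the read-based table Cst3 was the highest, at 1346 TPM in replicate 2 and 1372 TPM in replicate 1. Aldh1l1, an enzyme of folate metabolism widely used to mark astrocytes, stood at 24.7 and 26.8 TPM in replicates 2 and 1. The log2 ratio of Glul to Aldh1l1 (TPM + 1) was 4.97 ± 0.02 (SD, n = 2), which is a 31.4-fold excess. In the read-based table it was 4.53 ± 0.32 (SD, n = 2), with Aldh1l1 at 58.9 TPM in replicate 2 and 41.6 TPM in replicate 1. Glul and Aldh1l1 were the only genes of the 34 with an uncertainty above 0 in the assignment of reads to the gene, with posterior SDs of 7.94 and 9.50 reads for Glul and 0.67 and 0.45 reads for Aldh1l1 in replicates 2 and 1.

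Ndrg2, a gene of the NDRG family placed here by its hydrolase-like fold, stood at 333 and 312 TPM in replicates 2 and 1. Plpp3, a lipid phosphate phosphatase, stood at 67.5 TPM in replicate 2 and 68.8 TPM in replicate 1, and Acsbg1, an acyl-CoA synthetase for very long-chain fatty acids, at 53.3 and 51.6 TPM in those mice. Cbs, cystathionine beta-synthase of the transsulfuration pathway, stood at 22.1 TPM in replicate 2 and 16.7 TPM in replicate 1. The read counts of Cbs did not follow that order, at 541 in replicate 2 and 572 in replicate 1. Of the TPM of Cbs, 25.7% in replicate 2 and 5.70% in replicate 1 lay on Cbs-212, a model of 363 bases with 27 reads in replicate 2 and 5 in replicate 1. In the read-based table Cbs-212 held 0% in both mice, and Cbs stood at 33.8 TPM in replicate 2 and 31.5 TPM in replicate 1.

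Ndrg2 (ENSMUSG00000004558.15, chr14:51905271-51914158, minus strand) carried a small coding insert in part of its transcripts. Ndrg2-202, with 357 codons, held 47.6% of the gene's TPM in replicate 2 and 54.1% in replicate 1, and Ndrg2-201, with 371 codons, held 37.3% and 35.1% in those mice. The read-based table put more on incomplete models and gave 33.4% in replicate 2 and 38.4% in replicate 1 to Ndrg2-202, and 25.4% and 24.5% to Ndrg2-201, so the shorter form led in both tables. Both transcripts share 1071 coding bases. The 42 bases that only Ndrg2-201 holds are in capitals, with 18 bases on each side in lower case (minus strand, joined from exons within chr14:51910768-51911483).
Ndrg2-201: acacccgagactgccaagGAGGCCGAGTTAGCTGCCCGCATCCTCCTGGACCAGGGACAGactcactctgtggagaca

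The receptors and surface proteins stood at 14.3 to 67.4 TPM (means of the mice). Ntsr2, a neurotensin receptor, stood at 67.9 TPM in replicate 2 and 66.9 TPM in replicate 1. Fgfr3, a fibroblast growth factor receptor, stood at 58.9 TPM in replicate 2 and 47.2 TPM in replicate 1, with a log2 ratio of scaled counts of 0.17 (counting interval 0.11 to 0.24). Gpc5, a heparan sulfate proteoglycan held at the membrane, stood at 13.8 TPM in replicate 2 and 14.7 TPM in replicate 1. A model of Ntsr2 with a retained intron, Ntsr2-205, took 16.8% and 15.1% of the gene's TPM in replicates 2 and 1, and 16.3% and 14.0% in the read-based table, so that a transcript that is not annotated as coding held a similar share in both. Fgfr3 had 17 annotated transcripts, and its leading transcript, Fgfr3-201, held 32.0% in replicate 2 and 46.9% in replicate 1, and 7.36% and 4.13% in the read-based table, where Fgfr3-210 led with the same 800 codons. Of the 7158 exon bases of Fgfr3, 998 overlap G630022F23Rik, a model of the opposite strand with 58 reads in replicate 2 and 65 in replicate 1.

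The lipid carriers were among the most abundant of the 34 genes. Apoe (ENSMUSG00000002985.16, chr7:19696109-19699188, minus strand), the main apolipoprotein of the brain, stood at 833 TPM in replicate 2 and 789 TPM in replicate 1. Clu (ENSMUSG00000022037.15, chr14:65968483-65981547, plus strand), also called apolipoprotein J, stood at 402 TPM in replicate 2 and 399 TPM in replicate 1. The log2 ratio of Apoe to Clu (TPM + 1) was 1.02 ± 0.05 (SD, n = 2) in the alignment-based table and 0.21 in the read-based table. Apoe exceeded Clu in both, but by 2.02-fold in the alignment-based table and by 1.16-fold in the read-based table, a gap far wider than that between the mice. Clu-205, a model of 558 bases subject to nonsense-mediated decay, held 27.8% and 27.3% of the read-based TPM of Clu in replicates 2 and 1. These shares came from 914 of 13126 reads in replicate 2 and 955 of 13888 in replicate 1. In the alignment-based table Clu-205 held 0.41% and 1.14% in those mice. The incomplete model Clu-206 took a further 20.2% and 21.8% of the read-based TPM.

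The secreted and matrix genes spanned from 6.84 to 787 TPM (means of the mice). Cst3, a secreted inhibitor of cysteine proteases, stood at 783 TPM in replicate 2 and 791 TPM in replicate 1. Sparcl1, also called hevin, which promotes the formation of synapses, stood at 636 TPM in replicate 2 and 650 TPM in replicate 1. Sparc, a related matrix protein that acts against it, stood at 98.8 TPM in replicate 2 and 93.1 TPM in replicate 1, so the log2 ratio of Sparcl1 to Sparc (TPM + 1) was 2.73 ± 0.08 (SD, n = 2), a 6.65-fold excess, and 2.63 in the read-based table. Htra1, a secreted serine protease, stood at 107 TPM in replicate 2 and 103 TPM in replicate 1, and Mfge8, a bridging protein for the uptake of dying cells, at 81.5 and 75.7 TPM in those mice.

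The lowest secreted genes were Agt and Chrdl1. Agt (ENSMUSG00000031980.9, chr8:124556534-124569706, minus strand), the precursor of the angiotensins, stood at 8.62 TPM in replicate 2 and 5.67 TPM in replicate 1, from 284 and 200 reads. The difference was 0.54 on the log2 scale of scaled counts, with a counting interval of 0.27 to 0.81, and 0.41 in the read-based table. Chrdl1, an inhibitor of bone morphogenetic proteins that also acts on synapse maturation, stood at 6.33 TPM from 385 reads in replicate 2 and 7.35 TPM from 485 reads in replicate 1, and had the lowest log2 ratio of the 34 genes at −0.30 (−0.50 to −0.10). Transcripts coding 333 codons held 52.9% and 52.6% of the TPM of Chrdl1 in replicates 2 and 1, and those coding 447 codons held 36.7% and 34.2% in the same mice.

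The metallothioneins, small proteins whose cysteines bind zinc and copper, were all abundant. Mt3, the form most restricted to brain, stood at 377 TPM in replicate 2 and 368 TPM in replicate 1, Mt1 at 245.5 and 247 TPM and Mt2 at 216 and 210.1 TPM in those mice. The order Mt3, Mt1, Mt2 was the same in both mice and in both tables, with a log2 ratio (TPM + 1) of Mt3 to Mt1 of 0.59 ± 0.03 and of Mt1 to Mt2 of 0.21 ± 0.04 (SD, n = 2), or 0.78 and 0.41 in the read-based table. The genes lie on chromosome 8, plus strand, within 27.7 kb, at chr8:94152607-94154146 for Mt3, chr8:94172664-94173568 for Mt2 and chr8:94179082-94180327 for Mt1. Their coding sequences are shown because reads of similar genes can be misassigned and because the cysteine codons, in capitals, carry the function. Each holds 20 cysteine codons, of 61 codons in Mt1 and Mt2 and of 68 in Mt3 (GENCODE M21, mm10, plus strand, without the stop codon, joined from 3 exons each).
Mt1-201: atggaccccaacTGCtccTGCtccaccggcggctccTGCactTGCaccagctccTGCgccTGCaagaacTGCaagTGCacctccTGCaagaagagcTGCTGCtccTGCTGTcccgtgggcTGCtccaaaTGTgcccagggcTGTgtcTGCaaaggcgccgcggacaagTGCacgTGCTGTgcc
Mt2-201: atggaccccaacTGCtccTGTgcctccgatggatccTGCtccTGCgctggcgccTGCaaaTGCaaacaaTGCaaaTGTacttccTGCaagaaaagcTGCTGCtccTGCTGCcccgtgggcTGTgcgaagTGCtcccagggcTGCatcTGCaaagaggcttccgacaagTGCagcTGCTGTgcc
Mt3-201: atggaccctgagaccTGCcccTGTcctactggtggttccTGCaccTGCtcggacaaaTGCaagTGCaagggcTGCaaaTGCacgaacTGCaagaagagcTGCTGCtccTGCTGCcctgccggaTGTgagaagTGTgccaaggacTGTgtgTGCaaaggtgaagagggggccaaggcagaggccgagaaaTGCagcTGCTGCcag

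Over the aligned coding sequences, Mt1 and Mt2 were identical at 79.2% of positions, Mt1 and Mt3 at 65.7%, and Mt2 and Mt3 at 67.2%. The longest run of bases that any pair of these whole transcripts shared was 27. The posterior SD of the gene count was 0 for all 3 in both mice, so the quantifier left no read open between them. Within Mt2 the split was open: the alignment-based table gave Mt2-202, a model with 76 codons, 49.96% of the gene's TPM in replicate 2 and 53.1% in replicate 1, whereas the read-based table gave 100% to Mt2-201 with its 61 codons in both mice. Gm45774, an antisense gene, shares 432 of the 588 exon bases of Mt2 and was given 8 reads in replicate 2 and 7 in replicate 1.

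Mt1 and Mt2 are known targets of glucocorticoids and of zinc, and other genes with those inputs were examined beside them. Between the mice, the log2 ratios of Mt1 (−0.09, counting interval −0.17 to 0.00), Mt2 (−0.01, −0.11 to 0.10) and Mt3 (−0.03, −0.10 to 0.04) were all within 0.1. Of 14 genes known to respond to glucocorticoids, 13 were detected, their median log2 ratio was −0.46, and 6 of the 13 averaging 100 or more reads were lower in replicate 2 by more than 0.5. A lower value of that size was found for 1.07% of all 11728 protein-coding genes with such counts. Ddit4, a stress-induced inhibitor of mTOR signalling, stood at 14.8 TPM in replicate 2 and 31.1 TPM in replicate 1, and Sgk1, a kinase, at 31.5 and 62.3 TPM in those mice. The others were Tsc22d3, Cdkn1a, Errfi1 and Pdk4, while Fkbp5, a co-chaperone of the receptor, stood at 30.6 TPM in replicate 2 and 28.1 TPM in replicate 1. Of 20 zinc handling genes 19 were detected. Of the 18 averaging 100 or more reads 0 differed by more than 0.5, against 2.26% of all 11728, and their median log2 ratio was −0.09. The levels of the 20 ranged from the importer Slc39a10, at 95.8 TPM in replicate 2 and 94.9 TPM in replicate 1, to Slc39a4, at 0.19 TPM from 1 read in replicate 2 and 0.16 TPM from 4 reads in replicate 1. These ratios use the scaling on genes, and a scaling on ERCC totals moves each of them up by about 0.40.

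Over all 34 genes the mice were close. None of the 34 differed by more than 1 on the log2 scale, against 0.247% of the 11728 protein-coding genes averaging 100 or more reads, and 2 of the 34 differed by more than 0.5, against 2.26%. Both, Sox9 and Agt, were higher in replicate 2, a direction and size shown by 1.19% of all those genes, and only Sox9 stayed past 0.5 in the read-based table. The median log2 ratio was −0.04 for the 34 genes and −0.03 for all 11728. In size, the median difference was 0.07 for the 34 genes and 0.10 for all, and 21 of the 34 lay within 0.1 and 30 within 0.2. How many of all 11728 lay within these limits was not counted, and the gene sets were not matched for read count. The counting interval left out 0 for 17 of the 34, but it covers counting error only, and the same count over all 11728 genes was not made.

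Signs between the mice rest on the scaling. Under the scaling on genes 8 of the 34 were higher in replicate 2 and 26 lower, while with library totals 21 were higher and 13 lower. The share of all 11728 genes on each side of 0 was not counted. Under the scaling on genes their median was −0.03, with quartiles of −0.12 and 0.08. With ERCC totals all 34 were higher, as the median of all 11728 genes itself moved up by 0.40. The 13 genes whose ratio exceeded 0.1 in size had the same sign in both tables under the scaling on genes, and how often this held among all genes was not counted. Both tables were made from the same reads, so the shared sign is not a separate measurement of the mice. The genes past 0.5 were Sox9 and Agt with library totals, and Sox9, Agt, Fgfr3 and Gfap with ERCC totals, before that shift is taken off.

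**Figure D2:**
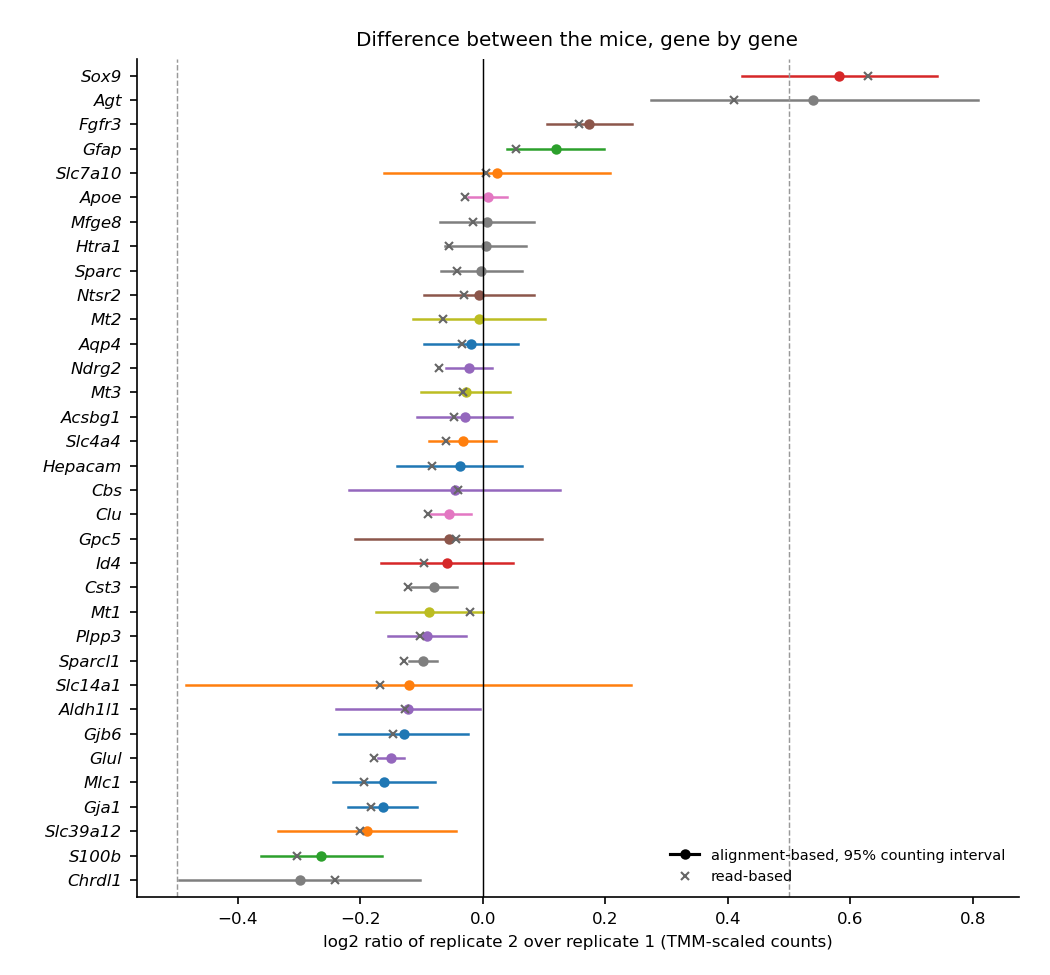
Log2 ratio of replicate 2 over replicate 1 for each of the 34 genes, from expected counts scaled by TMM, ordered by value; points are the alignment-based counts coloured by role as in the plot of levels, bars are 95% counting intervals, crosses are the read-based counts, and dashed lines mark 0.5 in either direction. Only Sox9 (0.58) and Agt (0.54) pass a dashed line, and most other points lie within 0.2 of 0.

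The lists of other astrocyte genes and of reactive astrocyte genes give the setting. Of 30 further astrocyte genes outside the 34, all were detected, at a median of 23.7 TPM in replicate 2 and 25.4 TPM in replicate 1. Slc1a2, which takes up glutamate, was the highest at 769 TPM in replicate 2 and 843 TPM in replicate 1. Of these 30 genes 1, Pdk4, a kinase that inhibits pyruvate dehydrogenase, differed by more than 0.5, at 4.14 TPM in replicate 2 and 6.37 TPM in replicate 1, and the median log2 ratio was −0.08. Of 25 genes known to be induced in reactive astrocytes, 13 were detected and the median was 1.09 TPM in replicate 2 and 1.22 TPM in replicate 1. The highest of them was Vim, an intermediate filament gene also active in vessels, at 24.7 TPM in replicate 2 and 24.9 TPM in replicate 1. Of the 7 with an average of 100 or more reads, Osmr, a cytokine receptor, was lower in replicate 2 by more than 0.5, at 1.09 TPM there and 1.95 TPM in replicate 1. Lcn2, a secreted carrier protein, stood at 0.80 TPM from 12 reads in replicate 2 and 2.01 TPM from 33 reads in replicate 1, and Cxcl10, a chemokine, had no read in either mouse, which allows up to 3 reads in each.

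The deposited tables gave similar read counts for the 34 genes and different levels for some of them. The alignment-based count over the read-based count, in log2, had a median of −0.07 over the 34 genes and of −0.10 over 12842 detected protein-coding genes. For TPM rescaled to nuclear protein-coding genes, that ratio had a median of 0.01 for the 34 genes and ran from −0.74 for Mt3 to 0.45 for Gjb6. Over the 12842 detected protein-coding genes its median was 0.07, with 5th and 95th percentiles of −0.48 and 0.41. The effective length by which reads are divided was 99 bases short of the full transcript among alignment-based values. Among read-based values it was a median of 340 bases (replicate 2) and 344 bases (replicate 1) short of it. The part of effective length in the differences between the tables was not tested, nor was that of the split of reads among models. Mt3, Mt1, Clu, Slc39a12 and Fgfr3 all stood lower in the alignment-based table by more than 0.5, and how many of all genes did so was not counted. For Slc39a12, this log2 ratio was −0.06 for read counts and −0.72 for the level, and 50.6% of its read-based TPM in each mouse lay on Slc39a12-203, an incomplete model of 536 bases with 62 reads in replicate 2 and 70 in replicate 1.

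**Figure D3:**
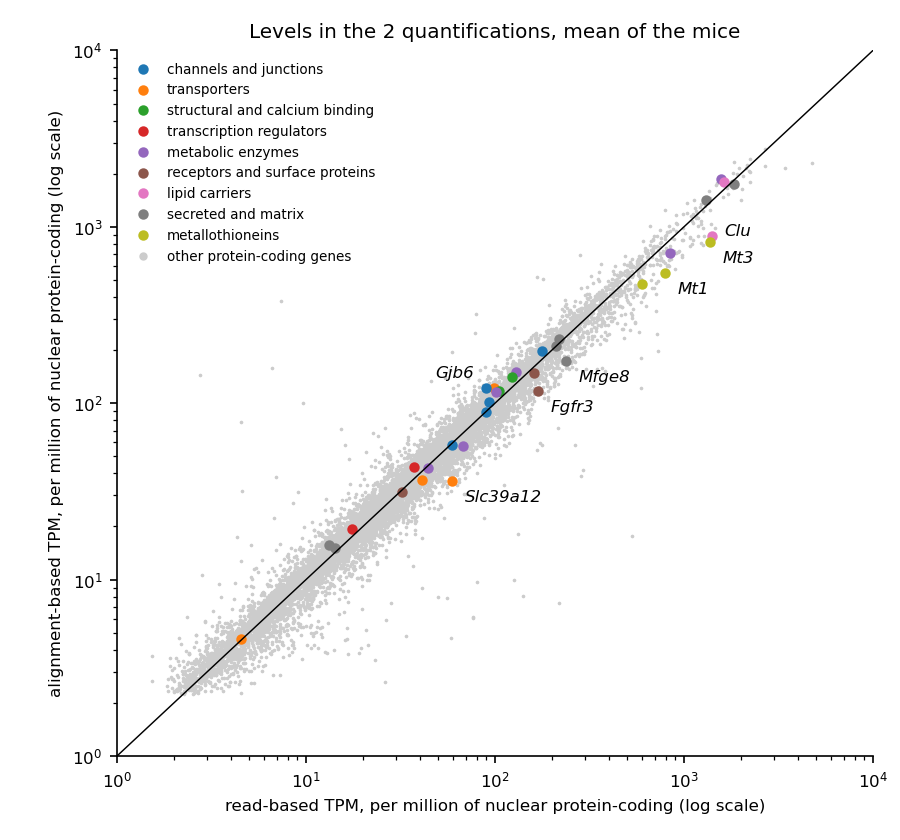
Alignment-based TPM against read-based TPM, each rescaled to the same sum over nuclear protein-coding genes and averaged over the mice, on log axes; coloured points are the 34 genes by role, grey points are other protein-coding genes detected in both tables, and the line marks equal values. Mt3 (−0.74), Slc39a12 (−0.72) and Clu (−0.66) lie below the line and Gjb6 (0.45) above it, in log2 of alignment-based over read-based TPM.

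Transcript make-up could be read for the 29 genes with several annotated transcripts, the other 5 (Agt, Id4, Plpp3, S100b and Sox9) having 1 each. In the alignment-based table the leading transcript held at least 90% of the gene's TPM in 12 of the 29 and under 50% in 3, Cbs, Chrdl1 and Fgfr3. Neither count was made over all genes. The leading transcript was the same in both tables for 22 of the 29, against 76.1% of detected protein-coding genes with several transcripts. It was the same in both mice for 27 of the 29, against 87.7%. The 7 genes that differed between the tables were Apoe, Cbs, Fgfr3, Gja1, Mt2, Slc39a12 and Sparc.

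In a step added after the data were seen, incomplete models were left out and models with the same coding sequence were summed. The leading coding sequence was then the same in both tables for 26 of the 29 genes and differed for Cbs, Mt2 and Sparc. Slc39a12 is among the 26 only because its incomplete model Slc39a12-203, with 50.6% of the read-based TPM, was left out. For Cbs, models outside the comparison held 57.0% of the alignment-based TPM and 61.8% of the read-based TPM (means of the mice). The same count over all genes was not made. For Gja1, the alignment-based table put 98.9% of the TPM in replicate 2 and 98.5% in replicate 1 on Gja1-201, and the read-based table put 53.2% and 63.3% in those mice on Gja1-206, which has the same 382 codons and starts 1758 bases further on. For Apoe the tables favoured Apoe-209 (86.2% in replicate 2 and 87.9% in replicate 1, alignment-based) and Apoe-205 (93.9% and 94.8%, read-based), which share 311 codons and whose starts lie 601 bases apart. In both genes the choice was between starts and not between proteins. For Sparc the forms have 301 and 302 codons: Sparc-202, with 301, held 72.9% in replicate 2 and 72.5% in replicate 1 in the alignment-based table, and the form with 302 held 62.1% and 54.6% in the read-based table.

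**Figure D4:**
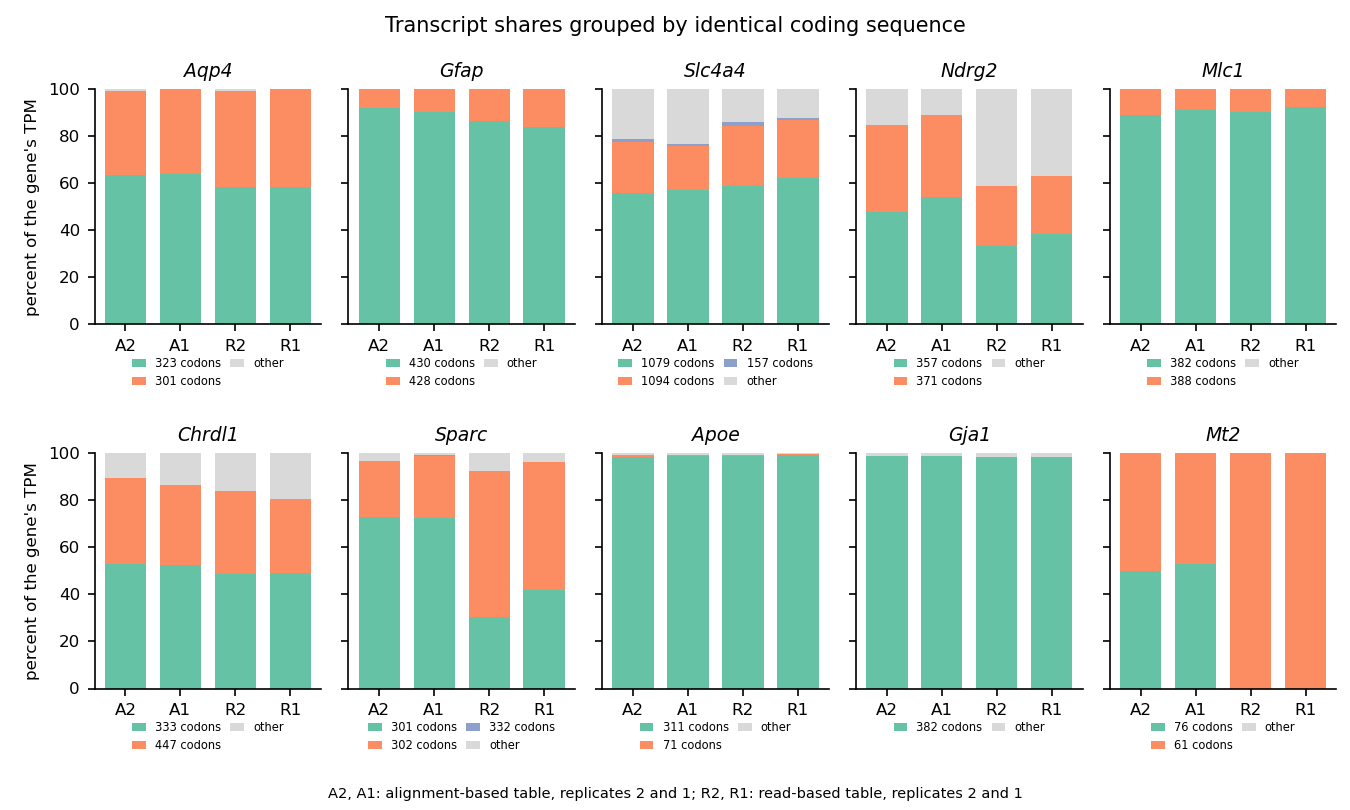
Percent of each gene's TPM on transcripts grouped by identical coding sequence, for 10 genes; bars are the alignment-based table for replicates 2 and 1 (A2, A1) and the read-based table for replicates 2 and 1 (R2, R1), colours are coding sequences by their number of codons, and grey is all other transcripts. The bars of Aqp4, Gfap, Mlc1, Apoe and Gja1 are alike in all 4 columns, whereas those of Mt2 and Sparc change order between the tables.

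In Glul, Mfge8 and Htra1 the share of a non-coding or incomplete model differed between the tables. Glul-203, an incomplete model of 379 bases, took 17.9% of the TPM of Glul in replicate 2 and 18.5% in replicate 1. These came from 751 and 882 reads, out of 33263 and 37801 for the gene, and the read-based table gave Glul-203 0%. There another incomplete model, Glul-202 of 681 bases, took 20.7% in replicate 2 and 13.4% in replicate 1, against 0% in the alignment-based table. Mfge8-210, a non-coding model of 405 bases, held 1.09% of the TPM of Mfge8 in replicate 2 and 0.29% in replicate 1 in the alignment-based table, and 28.2% and 35.0% in the read-based table. The read-based shares came from 75 of 2866 reads in replicate 2 and 101 of 2885 in replicate 1. Htra1-205, a non-coding model of 1606 bases, held 17.1% from 507 reads in replicate 2 and 18.6% from 569 reads in replicate 1 in the alignment-based table, and 26.5% and 27.6% in the read-based table.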

How the data were processed

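Total RNA of 2 mice was sequenced in 1 library each. Per the file headers and the deposited listing, the authors quantified every library on mm10 with GENCODE M21 from a transcriptome alignment (the alignment-based tables, for genes and transcripts) and directly from the reads (the read-based table, for transcripts). The aligner, both quantifiers and any use of strand were not given in the sources used here. Deposited values are expected or estimated counts (reads per gene or transcript, not whole and not normalized), TPM over all rows, each transcript's percent of its gene's TPM and, per the file headers, a posterior SD of each count, which is a measure of another kind, in reads. Libraries were not pooled.

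Symbols, types and 1-based coordinates came from GENCODE M21, and sequences from its transcripts, so they are those of the reference genome and not of the hybrid mice. How the quantification on mm10 treated reads that carry CAST variants was not given in the sources used here, and its effect on levels, ratios and transcript shares was not tested. Read-based values were summed per gene. Levels are deposited TPM with mean and SD of the 2 mice, list levels are medians, and ratios between genes use log2(TPM + 1). Log2 ratios of replicate 2 over replicate 1 used expected counts rounded to whole numbers, TMM scaling by edgeR 4.0.16 in R 4.3.3 and a prior count of 0.5, with exact binomial (Clopper-Pearson) intervals at 95% that cover counting error only. With 1 library per mouse no test was run, and a fold of 0.5 or 1 on the log2 scale stands in place of a call. The scaling, ratios and intervals were tested on simulated counts that held counting error but no variation between mice. That test therefore does not cover differences between animals. The total counts, given in the report, set the precision, and a count of 0 allows up to 3 reads.

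The 34 genes and the lists of other genes were chosen with earlier results of these data known. By rule all 34 are named, and other genes only from the lists of other astrocyte, reactive, glucocorticoid-responsive and zinc handling genes and of cell type markers, as the highest, the lowest or those past 0.5. Fkbp5, Lcn2, Slc17a7, Cbln3 and the genes that overlap one of the 34 were named after their values were seen. Alternatives were other detection levels and pseudocounts, rescaled TPM, the read-based table, DESeq2 1.42.0 size factors, library and ERCC totals, no rounding, a prior count of 5, coding transcripts only, and each mouse alone. Scripts ran in Python 3.11.15; they used pandas 2.3.3, numpy 2.4.6, matplotlib 3.10.9 and scipy 1.17.1.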

Additional observations from a re-analysis of the deposited data

How the results depend on the processing

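Sox9 and Agt were higher in replicate 2 under each alternative tried, and the 9 ratios between related genes kept their direction, whereas the median ratio of the 34 genes between the mice changed sign with the scaling. The count of detected genes was 34 under each alternative except a TPM of at least 5, which gave 33. The median level of the 34 genes, 5.83 ± 0.06 as log2(TPM + 1), was 6.96 where TPM was rescaled over nuclear protein-coding genes, and 6.40 with read-based TPM, and 5.79 to 5.87 with either mouse alone. The rescaling leaves out mitochondrial and non-coding RNA from the sum, and the cause of the shift in the read-based table was not tested. The count of genes past 0.5 between the mice, 2, was 4 with ERCC totals and 1 with read-based counts (Agt at 0.41, the cause not tested), and the median ratio, −0.04, was 0.02 with library totals and 0.36 with ERCC totals, where the median of all genes was 0.37 and 22.1% of them were higher in replicate 2 by more than 0.5. The genes added by ERCC totals were Gfap and Fgfr3. The leading transcript was the same in both tables for 22 and 23 of 29 genes with either mouse alone, and for 20 of 27 with coding transcripts only. Among single genes and ratios between genes, 95 values moved by more than their spread and 315 did not. The 315 include values that could not move. A level or a ratio between genes from 1 mouse alone always lies within the SD of the 2 mice. All 34 genes also averaged 100 or more reads, so a limit at that count changed no ratio. Of the 34 ratios between the mice, 34 moved with ERCC totals, 8 with library totals and 5 with read-based counts. A ratio between the mice cannot be formed without either of them. No paired analysis was possible because both mice belong to 1 group. Depth limits the genes with few reads: for Slc14a1, at 123 reads in replicate 2 and 137 in replicate 1, the counting interval of the log2 ratio ran from −0.48 to 0.24.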
